A study of Homo sapiens with 14 samples.

Results

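The transforming growth factor beta (TGF-beta) and bone morphogenetic protein (BMP) pathway was followed across 7 groups of 22Rv1 cells in which FOXA1 had been lowered, degraded or altered. 22Rv1 is an established human prostate cancer line, and FOXA1 is a pioneer factor of the luminal prostate, a protein that binds its sites in closed chromatin. The 40 genes were listed by name as ligands, latent TGF-beta binding proteins, receptors, SMADs, inhibitory and feedback genes, and ID and other target genes. All 40 had a row in each of the 4 deposited count tables, among up to 57905 features a table. A mean of 1 CPM (counts-per-million) or more was reached by 35 of them in all 4 tables, by TGFB2 in 3 tables and by INHBA in 1. BMP4, BMP7 and TGFBI stayed below it everywhere.

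The RNA came from cells infected with a lentivirus carrying a hairpin against FOXA1 (shFOXA1) or a control virus (shCtrl), from FOXA1_dTAG cells at 0 h, 1 h and 24 h, and from FOXA1_dTAG cells labelled R219S or WT. A dTAG fusion marks the tagged protein for degradation once a small molecule is added. All groups but shFOXA1 and shCtrl carried the FOXA1_dTAG genotype, the 0 h and WT controls included. The labels name dTAG and DMSO as the treatments without assigning them to libraries. Whether the R219S and WT cells received the degrader is therefore not known here, and no vehicle group at 1 h or 24 h is labelled. The number of hairpins, and whether each edited line was 1 clone, are also not stated. Titles of the shCtrl libraries read 22Rv2, whereas their cell line label reads 22Rv1. Each group had 2 libraries.

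TGF-beta family ligands are secreted dimers that bring together type I and type II receptor kinases. The TGF-beta and activin branch passes through SMAD2 and SMAD3, the BMP branch through SMAD1, SMAD5 and SMAD9, and both use SMAD4 to act in the nucleus. The pathway restrains itself: SMAD6, SMAD7, the SKI proteins and the SMURF ubiquitin ligases oppose it, and the ID genes are standard immediate targets of the BMP branch. In prostate epithelium TGF-beta is known as a growth inhibitor whose effect is often lost in tumours.

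Library totals ran from 21.6 M to 38.5 M counts. FOXA1 itself had 298 and 305 CPM in shFOXA1, against 402 and 434 CPM in shCtrl, a log2 change of -0.47 ± 0.062 (adjusted p = 0.000275), so most of the transcript remained. It had 171 and 168 CPM at 0 h, 170.0 and 168 CPM at 1 h and 203 and 195 CPM at 24 h, where the degrader acts on the protein and the mRNA is no measure of its loss. In the mutant table it had 703 and 681 CPM in R219S, against 1018 and 1032 CPM in WT. Each of the 6 luminal marker genes was detected in every group. Summed endothelial markers reached at most 0.398 CPM and leukocyte markers at most 0.563 CPM in any library. The 5 fibroblast markers summed to 23.4 to 29.5 CPM in shFOXA1 and 18.3 to 19.4 CPM in shCtrl, and to 328 to 334 CPM in R219S and 51.2 to 54.0 CPM in WT. Most of that last difference was the collagen gene COL3A1, with 276 and 281 CPM in R219S, against 7.03 and 5.85 CPM in WT, while COL1A2, another collagen gene of fibroblasts, was at 0 in all 4 libraries. COL1A1 lay the other way, with 13.5 and 13.5 CPM in R219S, against 25.2 and 25.0 CPM in WT, and the proteoglycan gene DCN had 38.0 and 38.6 CPM in R219S, against 21.2 and 19.9 CPM in WT. The part of these markers in the results was not tested, and in bulk RNA fewer cells of a type and less RNA per cell cannot be told apart. The shFOXA1 libraries stood further apart from each other than any other pair, with a chi-square per degree of freedom of 11.8 between them and 2.04 to 4.04 in the other groups. Separate cultures are not named in the labels, so the p-values describe the spread of these libraries, which may be technical.

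Degradation of FOXA1 for 1 h was followed by a rise of the 4 ID genes, SMAD6 and SMAD7. By 24 h 22 of 37 tested members were called higher, where 22.1% of all genes tested were. With the hairpin 13 of 38 tested members were called in either direction, where 23.6% of all genes tested were called, against 46.9% at 24 h. R219S cells showed the largest change of any member in either direction among the 4 comparisons with a control. In each comparison a gene was called at an edgeR adjusted p under 0.05 over all genes tested.

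The hairpin comparison asked which genes moved when FOXA1 mRNA was lowered. All 4 latent TGF-beta binding proteins, the BMP receptor BMPR1B, the TGF-beta transducer SMAD3 and the scarcely expressed ligand TGFB2 were higher in shFOXA1. The ligand BMP2, the decoy receptor BAMBI, the target ID1, the corepressor SKIL, the ligase SMURF1 and the receptor TGFBR1 were lower. That made 13 of 38 tested members, 7 higher and 6 lower, where 23.6% of all 19128 genes tested were called (28.1% of those with a mean of 1 CPM or more), 11.3% higher and 12.3% lower. The median log2 fold change was -0.025 over the members and 0.0100 over all genes. The 25 members not called had log2 fold changes between -0.49 and 0.78. This count leaned on the control libraries: with either shFOXA1 library left out 16 or 17 members were called, but 7 were called without shCtrl replicate 1 and 4 without shCtrl replicate 2. BMPR1B, SMAD3 and SKIL held their calls in every alternative run.

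The 1 h comparison asked what followed first when FOXA1 protein was degraded. ID1, ID2, ID3 and ID4, the inhibitory SMAD6 and SMAD7, TGFB1, LTBP3 and LTBP4 were higher at 1 h, and BAMBI, the accessory receptor TGFBR3, TGFB2, BMPR2, ACVR2B and SMAD9 were lower. These were 15 of 36 tested members, 9 higher and 6 lower, where 19.8% of 19397 genes were called (24.1% of those with a mean of 1 CPM or more), 10.7% higher and 9.12% lower. The median absolute log2 fold change was 0.21 over the members and 0.14 over all genes. Changes at 1 h moved with base composition, with a Spearman rho of 0.323 against transcript GC content across 18705 genes, which are not independent replicates. With an offset for GC content and length 13 members were called, 11 higher and 2 lower. Over all genes 2658 were called with it, 1436 higher and 1222 lower, against 3850 without it. Of the 15 member calls 9 were retained, TGFB1, LTBP4, TGFBR3, BMPR2, ACVR2B and SMAD9 were lost, and SMAD1, SMAD2, BMPR1A and SKIL were gained, each higher.

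At 24 h, 27 of 37 tested members were called, 22 higher and 5 lower, where 46.9% of 19607 genes were called (55.1% of those with a mean of 1 CPM or more). Over all genes tested, 22.1% were called higher and 24.8% lower. The median log2 fold change was 0.19 over the members and 0.0056 over all genes. The 5 that fell were the ligands TGFB2, BMP2 and INHBB, the receptor BMPR1B and BAMBI. The 1 h and 24 h comparisons share their 0 h libraries, and their values are set side by side below without a test of overlap. With the GC content and length offset 23 members were called, 20 higher and 3 lower. Over all genes 9320 were called with it, 4423 higher and 4897 lower.

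In R219S cells, 28 of 37 tested members were called, 12 higher and 16 lower, where 62.1% of 13990 genes were called (64% of those with a mean of 1 CPM or more), 30.5% higher and 31.6% lower. The members called were 75.7% of those tested, in a comparison where most genes of any kind were called. The median absolute log2 fold change was 0.46 over the members and 0.25 over all genes. All 5 tested ligands changed, 4 of them lower, and 5 of 8 inhibitory or feedback genes were lower. The summed fibroblast markers given above also differed between R219S and WT.

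**Figure D1:**
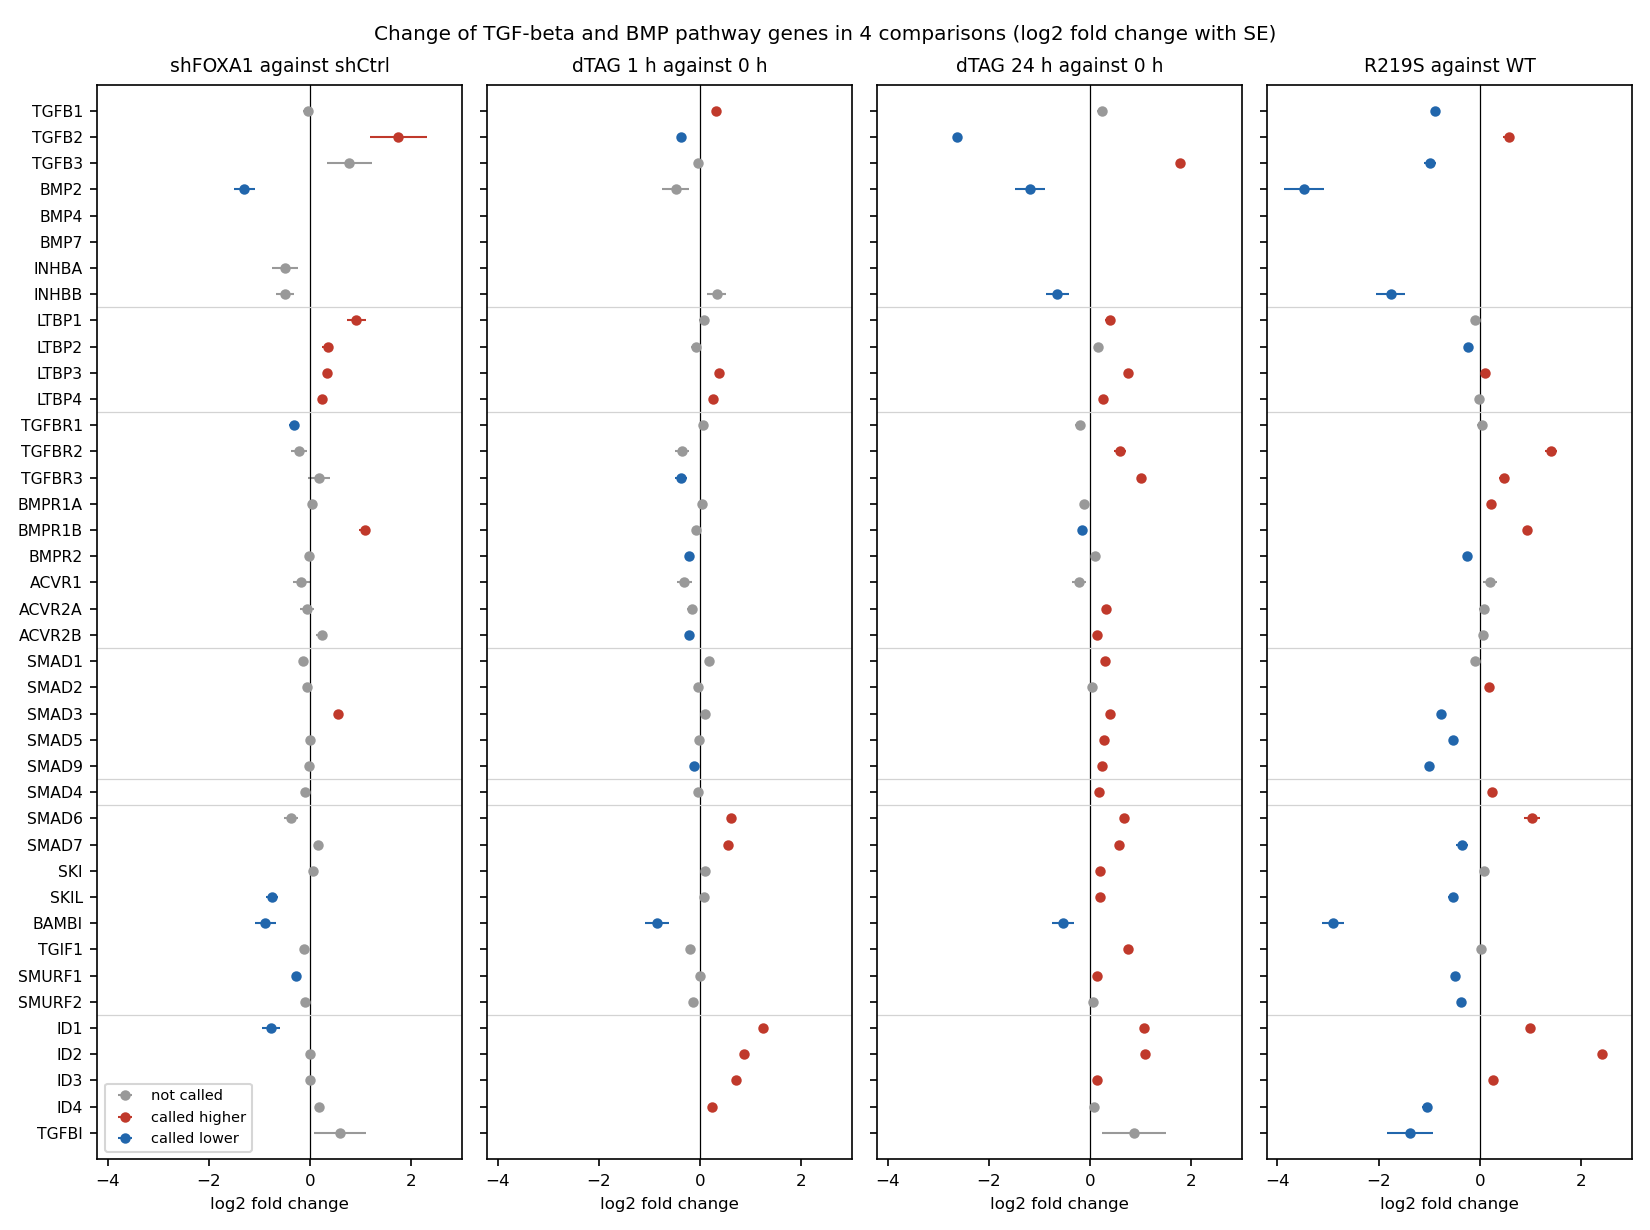
Log2 fold change (x axis) with its standard error for the 40 genes in 4 comparisons, ordered by role, with red for called higher, blue for called lower and grey for not called (2 libraries a group). The 1 h panel has its largest positive values at ID1, ID2 and ID3, the 24 h panel has 29 genes to the right of 0, of which 22 were called higher, and BMP2 and BAMBI have the most negative values in the R219S panel. Genes not tested in a comparison have no point.

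The 5 members that rose most at 1 h were ID1, ID2, ID3, SMAD6 and SMAD7, and their promoter windows are shown because these genes moved together. Each window runs from 250 bases before to 50 bases after the first start that RefSeq lists for the gene. The build is GRCh38.p14, which differs from the hg19 of the counts, and each window reads 5′ to 3′ on the gene's strand. Windows at further listed starts were not searched. The window of ID1 is chr20:31605039-31605338 on the plus strand, that of ID2 chr2:8681806-8682105 on the plus strand, that of ID3 chr1:23559452-23559751 on the minus strand, that of SMAD6 chr15:66701986-66702285 on the plus strand and that of SMAD7 chr18:48950916-48951215 on the minus strand. Capitals mark matches on either strand to 5 motifs. The SMAD box was searched as GTCTAGA and, in its short form, as the letters CAGAC, and no match to the longer form holds a match to the shorter. A further SMAD motif, rich in G and C, was GGCGCC. The forkhead motif was searched as TGTTTAC and, with its second last letter changed, as TGTTTGC.
ID1: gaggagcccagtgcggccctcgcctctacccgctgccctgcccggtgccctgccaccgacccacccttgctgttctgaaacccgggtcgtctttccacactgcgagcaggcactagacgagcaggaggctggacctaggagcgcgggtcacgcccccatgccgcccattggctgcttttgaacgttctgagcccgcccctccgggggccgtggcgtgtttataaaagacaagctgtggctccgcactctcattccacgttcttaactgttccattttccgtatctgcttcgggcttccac
ID2: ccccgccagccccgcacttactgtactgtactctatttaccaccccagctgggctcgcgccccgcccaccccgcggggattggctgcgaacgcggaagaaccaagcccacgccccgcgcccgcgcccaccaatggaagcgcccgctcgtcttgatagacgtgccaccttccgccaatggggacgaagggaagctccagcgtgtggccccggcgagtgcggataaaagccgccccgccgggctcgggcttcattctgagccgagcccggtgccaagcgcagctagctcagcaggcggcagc
ID3: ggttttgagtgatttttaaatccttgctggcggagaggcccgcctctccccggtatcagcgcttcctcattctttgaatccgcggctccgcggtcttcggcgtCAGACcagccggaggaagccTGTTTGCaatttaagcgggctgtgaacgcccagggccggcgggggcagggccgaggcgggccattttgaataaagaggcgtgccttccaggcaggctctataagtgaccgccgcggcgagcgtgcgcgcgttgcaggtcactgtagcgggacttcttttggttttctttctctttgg
SMAD6: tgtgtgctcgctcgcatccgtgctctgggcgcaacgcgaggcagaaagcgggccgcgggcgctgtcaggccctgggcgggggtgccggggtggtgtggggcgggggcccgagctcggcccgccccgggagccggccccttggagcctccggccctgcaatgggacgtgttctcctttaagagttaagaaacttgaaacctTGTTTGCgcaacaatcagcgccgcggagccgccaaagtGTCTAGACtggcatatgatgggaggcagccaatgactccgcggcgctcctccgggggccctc
SMAD7: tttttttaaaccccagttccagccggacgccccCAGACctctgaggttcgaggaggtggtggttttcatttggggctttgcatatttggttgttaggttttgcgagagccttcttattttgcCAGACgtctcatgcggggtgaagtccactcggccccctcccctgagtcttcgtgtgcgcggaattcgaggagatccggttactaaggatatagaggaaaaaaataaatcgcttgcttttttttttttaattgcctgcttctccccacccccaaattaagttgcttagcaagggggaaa

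None of the 5 motifs was in the ID1 or ID2 window, which says only that these letters are not in those 300 bases. ID3 held 1 CAGAC and 1 TGTTTGC, SMAD6 held GTCTAGA on both strands in overlapping positions and 1 TGTTTGC, and SMAD7 held 2 CAGAC. Over the 37 member windows found, CAGAC was in 56.8%, against 45% of all 27305 windows. GGCGCC was in 32.4% of member windows and 19% of all windows, and TGTTTGC in 10.8% and 3.87%, the 4 members being ID3, LTBP4, SMAD6 and TGFB1. Among the member windows searched, GTCTAGA was in that of SMAD6 alone, and it was in 1.41% of all windows. SMAD7 had 3 windows listed, of which only the first was searched. TGTTTAC was in 0 member windows and 3.41% of all windows. A match describes letters and is not a bound site. Windows for BMP2, BMP7 and SKI were not used here.

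The ID genes encode helix-loop-helix proteins that lack a DNA-binding region and block the partners they pair with. Per kilobase of the longest annotated transcript, they were the 4 highest members at 0 h, at 339.6 CPM per kb for ID3, 134 for ID1, 121 for ID2 and 39.7 for ID4. ID1 had 153 and 178 CPM at 0 h, 384 and 399 CPM at 1 h and 357 and 339.8 CPM at 24 h. Every 1 h and 24 h library lay far above both 0 h libraries, with a log2 change of 1.24 ± 0.082 (adjusted p = 0.00170) at 1 h and of 1.07 ± 0.055 (adjusted p = 8.70e-11) at 24 h. The hairpin moved ID1 the other way: it had 83.9 and 116 CPM in shFOXA1, against 166 and 175 CPM in shCtrl, a log2 change of -0.77 ± 0.17 (adjusted p = 0.0412). The groups did not overlap, but the call was lost without either shCtrl library, with adjusted p = 0.150 and 0.202, and with the GC content and length offset (0.0501). In R219S, ID1 had 49.7 and 50.3 CPM in R219S, against 25.3 and 25.3 CPM in WT, a log2 change of 0.98 ± 0.064 (adjusted p = 2.84e-44).

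ID2 had 253 and 242 CPM at 0 h, 462 and 442 CPM at 1 h and 535 and 511 CPM at 24 h, with each time point above the one before it. Its log2 fold change was 0.87 ± 0.030 at 1 h (adjusted p = 6.16e-40), 1.08 ± 0.037 at 24 h (adjusted p = 4.10e-21) and 0.21 ± 0.032 at 24 h against 1 h (adjusted p = 2.91e-07). With the hairpin it had 143 and 137 CPM in shFOXA1, against 144 and 136 CPM in shCtrl, overlapping groups with a log2 change of 0.0011 ± 0.062 (adjusted p = 0.993). The rise in R219S was the largest of any member in the 4 comparisons with a control: 75.2 and 80.3 CPM in R219S, against 15.2 and 14.1 CPM in WT, a log2 change of 2.40 ± 0.065 (adjusted p = 3.79e-165).

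ID3 had 418 and 432 CPM at 0 h, 689.9 and 694 CPM at 1 h and 481 and 451 CPM at 24 h, a peak at 1 h that had mostly gone by 24 h. The log2 fold change was 0.70 ± 0.027 at 1 h (adjusted p = 1.20e-37), 0.14 ± 0.037 at 24 h (adjusted p = 0.00287) and -0.57 ± 0.031 at 24 h against 1 h (adjusted p = 1.00e-20). The small 24 h rise lost its call without 24 h replicate 1 (adjusted p = 0.101) or without 0 h replicate 1 (0.0518). In R219S it had 182 and 175 CPM in R219S, against 149 and 151 CPM in WT, a log2 change of 0.25 ± 0.041 (adjusted p = 1.14e-08). ID4 rose at 1 h by 0.23 ± 0.039 (adjusted p = 3.32e-06) and had no call at 24 h (0.068, adjusted p = 0.282). It was the ID gene that fell in R219S, with 6.49 and 7.70 CPM in R219S, against 14.9 and 14.6 CPM in WT, a log2 change of -1.05 ± 0.11 (adjusted p = 1.82e-20). In shFOXA1, ID3 and ID4 had log2 fold changes of -0.0071 and 0.18 and neither was called. TGFBI, a matrix protein named for its induction by TGF-beta, had at most 0.976 CPM in any library and was called only in R219S, at -1.38 ± 0.45 (adjusted p = 0.00475), a call lost without R219S replicate 2 (adjusted p = 0.232) and with DESeq2 (0.0823).

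**Figure D2:**
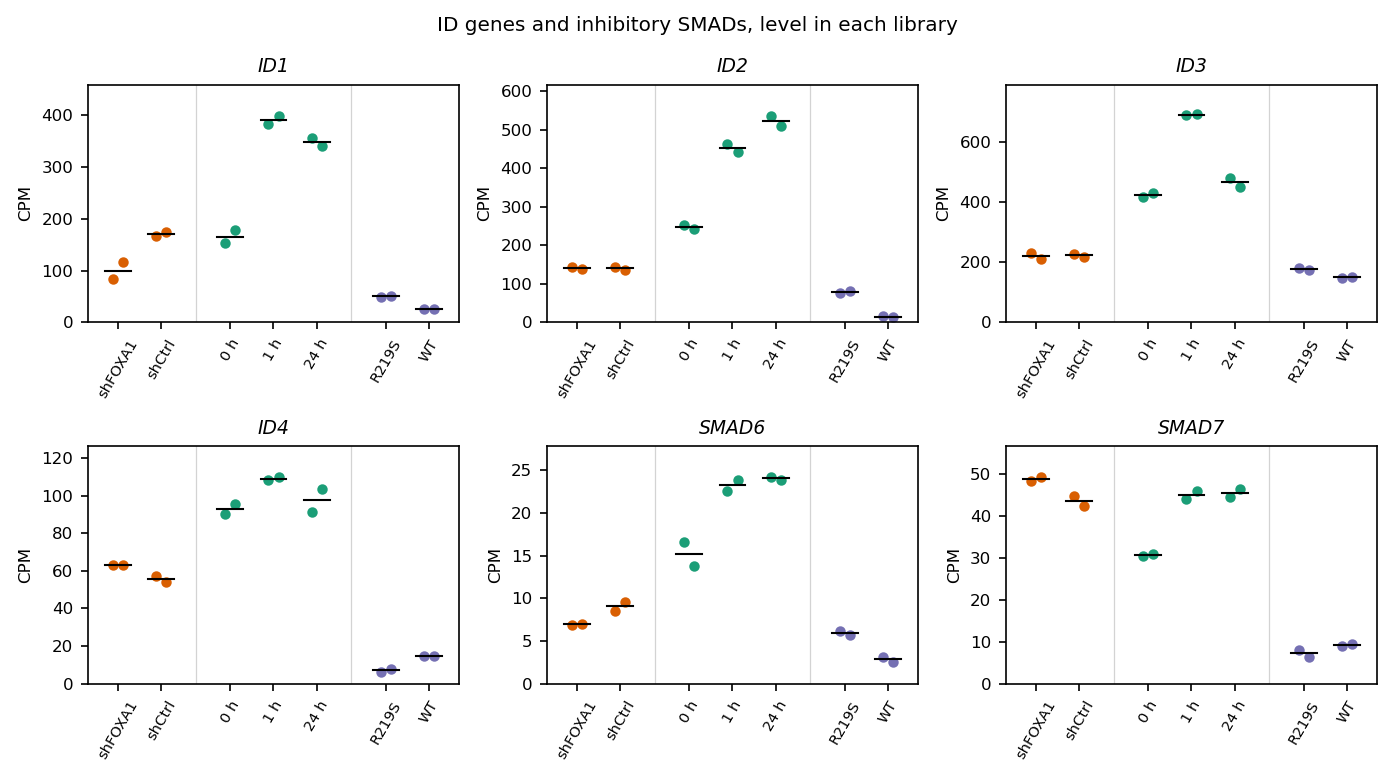
TMM-scaled CPM (y axis) of the ID genes, SMAD6 and SMAD7 in every library; points are libraries and bars are the means of 2. ID1, ID2, SMAD6 and SMAD7 are high at both 1 h and 24 h, ID3 peaks at 1 h between 689.9 and 694 CPM, and ID4 is lower in R219S than in WT. Levels of different tables were not tested against each other.

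SMAD6, which blocks the BMP branch, and SMAD7, which blocks both branches, rose early and stayed. SMAD6 had 16.6 and 13.7 CPM at 0 h, 22.6 and 23.9 CPM at 1 h and 24.2 and 23.9 CPM at 24 h. SMAD7 had 30.4 and 30.9 CPM at 0 h, 44.1 and 46.0 CPM at 1 h and 44.7 and 46.5 CPM at 24 h. In both genes the 1 h and 24 h libraries lay above the 0 h libraries. At 1 h the log2 change was 0.62 ± 0.082 for SMAD6 (adjusted p = 4.83e-09) and 0.55 ± 0.057 for SMAD7 (adjusted p = 4.88e-13). At 24 h it was 0.67 ± 0.086 for SMAD6 (adjusted p = 1.01e-07) and 0.57 ± 0.061 for SMAD7 (adjusted p = 2.10e-09). At 24 h against 1 h both changes were small, 0.051 ± 0.078 (adjusted p = 0.635) and 0.018 ± 0.055 (adjusted p = 0.829).

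In R219S these brakes parted. SMAD6 had 6.16 and 5.68 CPM in R219S, against 3.16 and 2.55 CPM in WT, a log2 change of 1.02 ± 0.16 (adjusted p = 2.99e-09). SMAD7 had 8.12 and 6.46 CPM in R219S, against 9.02 and 9.57 CPM in WT, a smaller fall of -0.36 ± 0.12 (adjusted p = 0.00518) that lost its call without R219S replicate 2 (adjusted p = 0.269) and with DESeq2 (0.0957). With the hairpin neither was called, at -0.38 ± 0.14 for SMAD6 (adjusted p = 0.0623) and 0.16 ± 0.072 for SMAD7 (adjusted p = 0.124).

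BAMBI, a receptor-like protein without a kinase that acts as a decoy, was called lower in all 4 comparisons, of which those at 1 h and 24 h share their controls. It had 2.45 and 2.20 CPM in shFOXA1, against 3.67 and 4.92 CPM in shCtrl, a log2 change of -0.89 ± 0.21 (adjusted p = 0.00976). In the time course it had 2.86 and 2.56 CPM at 0 h, 1.51 and 1.48 CPM at 1 h and 1.65 and 2.06 CPM at 24 h, with a log2 change of -0.86 ± 0.24 at 1 h (adjusted p = 0.00429) and -0.54 ± 0.22 at 24 h (adjusted p = 0.0428). No 1 h or 24 h library reached the lower 0 h library. In R219S it had 0.373 and 1.28 CPM in R219S, against 6.79 and 6.23 CPM in WT, a log2 change of -2.91 ± 0.22 (adjusted p = 4.01e-35). BAMBI was scarce, at 8 to 262 counts a library, and its calls outside R219S were lost in some settings. The 24 h call was lost with the GC content and length offset (adjusted p = 0.0575), with DESeq2 (0.186) and without 3 of the 4 libraries in turn, the 1 h call without 0 h replicate 1 (0.0522), and the hairpin call without shCtrl replicate 2 (0.161).

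The corepressor SKIL, also called SnoN, had 20.1 and 15.2 CPM in shFOXA1, against 30.6 and 28.9 CPM in shCtrl, a log2 change of -0.75 ± 0.12 (adjusted p = 0.00165), with no overlap between the groups. It also fell by 0.53 ± 0.091 in R219S (adjusted p = 2.53e-08), but rose slightly at 24 h, by 0.19 ± 0.062 (adjusted p = 0.0114), a call lost with DESeq2 (adjusted p = 0.0575) and without 0 h replicate 2 (0.172). Its relative SKI was called at 24 h alone, at 0.19 ± 0.042 (adjusted p = 0.000418), and not with the GC content and length offset (adjusted p = 0.492). TGIF1, a homeodomain corepressor of SMAD2, had 23.7 and 21.5 CPM at 0 h, 20.6 and 18.8 CPM at 1 h and 37.1 and 39.1 CPM at 24 h, and the 24 h libraries stood apart from the others with a log2 change of 0.75 ± 0.069 (adjusted p = 1.06e-10). It had no call at 1 h (-0.20 ± 0.077), in shFOXA1 (-0.12 ± 0.087) or in R219S (0.013 ± 0.070).

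The ubiquitin ligase SMURF1, which marks BMP SMADs for degradation, had 55.8 and 55.1 CPM in shFOXA1, against 65.7 and 69.4 CPM in shCtrl, a log2 change of -0.29 ± 0.067 (adjusted p = 0.00899). Its R219S libraries were also lower, with 93.6 and 90.7 CPM in R219S, against 131 and 128 CPM in WT, a log2 change of -0.49 ± 0.045 (adjusted p = 1.09e-24). At 24 h it was called slightly higher, at 0.14 ± 0.052 (adjusted p = 0.0234), where the lower 24 h library (79.9 CPM) was barely above the higher 0 h library (79.6 CPM). The hairpin call was lost without shCtrl replicate 2 (adjusted p = 0.170) and the 24 h call with the GC content and length offset (0.140), with DESeq2 (0.0938) and without 0 h replicate 2 (0.438) or 24 h replicate 2 (0.275). SMURF2, the related ligase, fell by 0.38 ± 0.066 in R219S (adjusted p = 6.01e-08) and was not called in the other comparisons with a control.

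Among the ligands, TGFB2 and TGFB3 moved in opposite directions during degradation. TGFB2 had 46.2 and 48.7 CPM at 0 h, 34.8 and 38.5 CPM at 1 h and 7.71 and 7.59 CPM at 24 h, each time point below the one before it. Its log2 fold change was -0.37 ± 0.056 at 1 h (adjusted p = 1.18e-07), -2.63 ± 0.079 at 24 h (adjusted p = 1.34e-22) and -2.26 ± 0.080 at 24 h against 1 h (adjusted p = 4.13e-28). TGFB3 had 16.3 and 17.1 CPM at 0 h, 16.3 and 16.2 CPM at 1 h and 56.4 and 58.0 CPM at 24 h. It showed no call at 1 h (-0.042 ± 0.085, adjusted p = 0.800) and the largest rise of any member at 24 h, 1.78 ± 0.065 (adjusted p = 1.89e-20).

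R219S moved the same ligands in the reverse direction. TGFB2 had 9.90 and 11.0 CPM in R219S, against 7.18 and 6.98 CPM in WT, a log2 change of 0.56 ± 0.11 (adjusted p = 3.26e-06). TGFB3 had 5.14 and 5.99 CPM in R219S, against 11.3 and 11.0 CPM in WT, a log2 change of -0.99 ± 0.12 (adjusted p = 3.82e-15). TGFB1, the main ligand of epithelial growth inhibition, had 32.7 and 32.1 CPM in R219S, against 58.1 and 62.9 CPM in WT, a log2 change of -0.90 ± 0.059 (adjusted p = 1.60e-43). In none of these 3 genes did the R219S and WT libraries overlap.

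With the hairpin 1 of the 3 TGF-beta ligands was called. TGFB1 had 18.6 and 18.6 CPM in shFOXA1, against 19.7 and 18.7 CPM in shCtrl, a log2 fold change of -0.045 ± 0.10 (adjusted p = 0.781). TGFB2 was almost silent in that table, with 20 and 22 counts in shFOXA1 and 3 and 10 counts in shCtrl, and its call at 1.74 ± 0.56 (adjusted p = 0.0410) was lost without either shCtrl library or without shFOXA1 replicate 2. TGFB3 had 5.99 and 13.3 CPM in shFOXA1, against 5.48 and 5.73 CPM in shCtrl, where 1 shFOXA1 library stood well above the other 3 and no call was made (adjusted p = 0.322). TGFB1 rose at 1 h by 0.32 ± 0.083 (adjusted p = 0.00262), a call lost with the GC content and length offset (adjusted p = 0.193) or without 1 h replicate 2 (0.0707), and at 24 h its libraries spread from 15.7 to 20.7 CPM with no call (adjusted p = 0.0528).

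BMP2, a BMP branch ligand, was lower in shFOXA1, at 24 h and in R219S. It had 30.8 and 20.5 CPM in shFOXA1, against 60.3 and 66.2 CPM in shCtrl, a log2 change of -1.30 ± 0.21 (adjusted p = 0.0186), a call that was lost without either shCtrl library (adjusted p = 0.121 and 0.161). Elsewhere it was scarce: it had 1.95 and 1.76 CPM at 0 h, 1.51 and 1.15 CPM at 1 h and 0.643 and 0.972 CPM at 24 h, with a log2 change of -1.19 ± 0.30 at 24 h (adjusted p = 0.00131). In R219S it had 1 and 9 counts, against 100 and 57 counts in WT, a log2 change of -3.47 ± 0.40 (adjusted p = 1.17e-16). INHBB, a subunit of activin B, had 0.747 and 0.778 CPM in R219S, against 2.41 and 2.85 CPM in WT, a log2 change of -1.76 ± 0.29 (adjusted p = 6.09e-09). At 24 h it had 2.02 and 1.55 CPM at 24 h, against 2.83 and 2.76 CPM at 0 h, a fall of -0.65 ± 0.22 (adjusted p = 0.0160) that lost its call with DESeq2 (adjusted p = 0.103) or without 24 h replicate 2 (0.155). INHBA, the activin A subunit, had 1.30 and 1.31 CPM in shFOXA1, against 1.96 and 1.71 CPM in shCtrl, no call (adjusted p = 0.189), and at most 3 counts in any other library. BMP4 had 0 to 13 counts and BMP7 0 to 11 counts a library, and neither was tested.

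**Figure D3:**
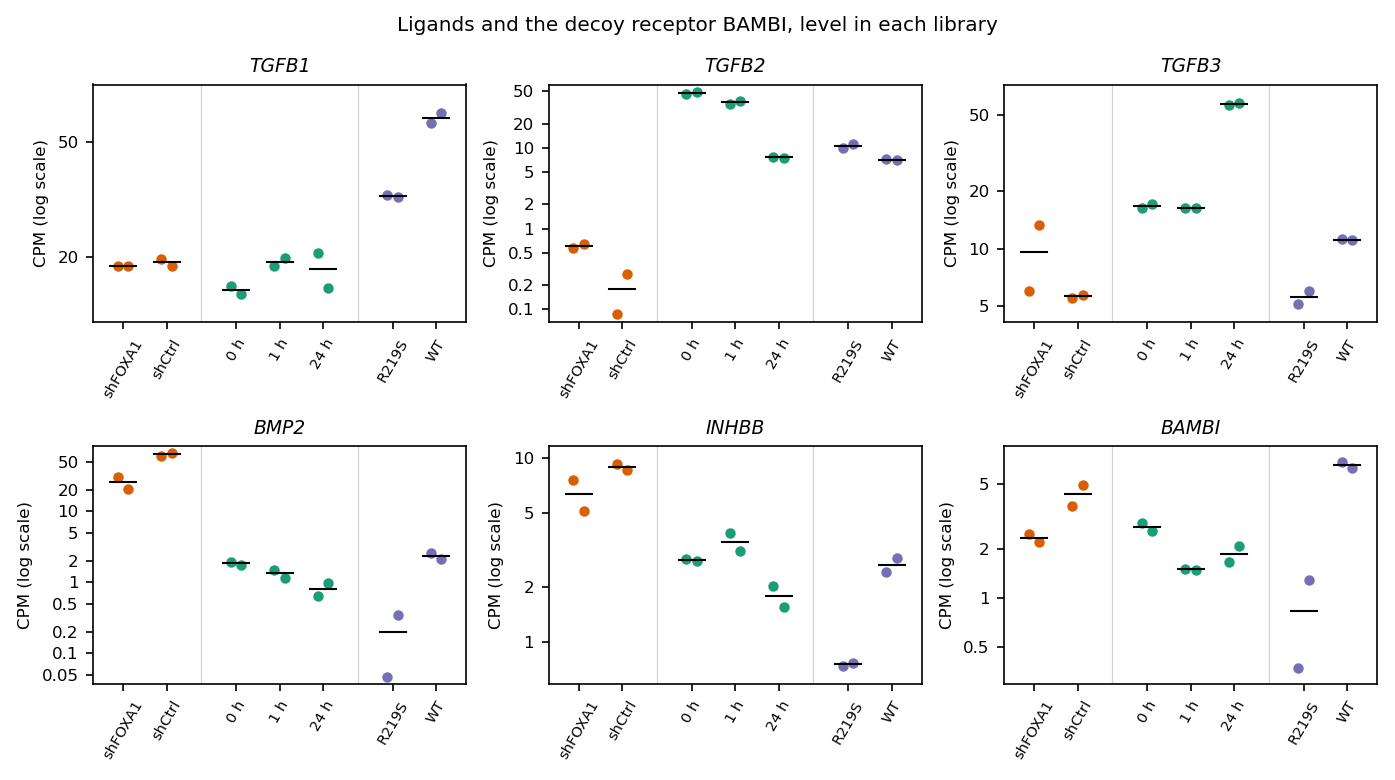
TMM-scaled CPM on a log scale (y axis) of 5 ligands and BAMBI in every library; points are libraries and bars are the means of 2. TGFB2 falls and TGFB3 rises by 24 h, and BMP2, INHBB and BAMBI lie lower in R219S than in WT. Levels of different tables were not tested against each other.

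Starting levels of some ligands differed widely between the tables, which were not tested against each other. The labels do not say whether the tables came from separate experiments. BMP2 had 60.3 and 66.2 CPM in shCtrl but 1.95 and 1.76 CPM at 0 h, and TGFB2 had 0.0866 and 0.272 CPM in shCtrl but 46.2 and 48.7 CPM at 0 h. The tables hold 3 control groups, and the tagged cells of the WT group also differed from those at 0 h: ID2 had 15.2 and 14.1 CPM in WT and 253 and 242 CPM at 0 h.

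The latent TGF-beta binding proteins tether the inactive ligand to the matrix, LTBP2 being the member that does not bind it. LTBP3 was also called in all 4 comparisons, each time higher. It had 112 and 108 CPM at 0 h, 135 and 148 CPM at 1 h and 185 and 184 CPM at 24 h, with rises of 0.37 ± 0.038 at 1 h (adjusted p = 1.95e-12) and 0.75 ± 0.040 at 24 h (adjusted p = 3.24e-16), and the 3 time points did not overlap. With the hairpin it had 82.7 and 87.0 CPM in shFOXA1, against 66.8 and 68.2 CPM in shCtrl, a log2 change of 0.33 ± 0.064 (adjusted p = 0.00312). The R219S rise was slight, 0.10 ± 0.044 (adjusted p = 0.0353), and was lost with DESeq2 (adjusted p = 0.125), with no filter on low counts (0.0523), with a replicate block (0.0609) and without 3 of the 4 libraries in turn.

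LTBP1 had 21.5 and 32.1 CPM in shFOXA1, against 14.1 and 14.5 CPM in shCtrl, a log2 change of 0.91 ± 0.19 (adjusted p = 0.0162), with the shFOXA1 libraries above the control libraries and far from each other. It rose at 24 h by 0.39 ± 0.088 (adjusted p = 0.000485). LTBP4 had 137 and 130.4 CPM in shFOXA1, against 113 and 116 CPM in shCtrl, a smaller rise of 0.23 ± 0.061 (adjusted p = 0.0178). LTBP4 also rose by 0.25 ± 0.036 at 1 h (adjusted p = 3.11e-08) and 0.26 ± 0.044 at 24 h (adjusted p = 9.14e-06), and its hairpin, 1 h and 24 h calls were each lost with the GC content and length offset (adjusted p = 0.217, 0.0629 and 0.809). LTBP2 had 17.2 and 15.6 CPM in shFOXA1, against 12.7 and 13.1 CPM in shCtrl, a log2 change of 0.35 ± 0.11 (adjusted p = 0.0349), and fell by 0.23 ± 0.082 in R219S (adjusted p = 0.0100). The R219S call was lost with DESeq2 (adjusted p = 0.0925) and without R219S replicate 1 (0.0735) or WT replicate 2 (0.0799). Without either shCtrl library LTBP1, LTBP2 and LTBP4 lost their hairpin calls, as LTBP2 did with DESeq2 (adjusted p = 0.0783), and LTBP3 lost its call without shCtrl replicate 1 (0.0534).

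Among the receptors, the TGF-beta type II receptor TGFBR2 and the accessory receptor TGFBR3, betaglycan, which presents ligand to it, were higher at 24 h and in R219S. TGFBR2 had 6.72 and 6.26 CPM at 0 h, 5.02 and 5.15 CPM at 1 h and 10.2 and 9.32 CPM at 24 h, with a log2 change of 0.59 ± 0.12 (adjusted p = 0.000112) at 24 h and no call at 1 h (-0.35 ± 0.14, adjusted p = 0.0682). TGFBR3 had 9.14 and 10.4 CPM at 0 h, 7.21 and 7.82 CPM at 1 h and 18.9 and 20.4 CPM at 24 h, first a fall of -0.38 ± 0.12 at 1 h (adjusted p = 0.0137) and then a rise of 1.01 ± 0.094 at 24 h (adjusted p = 1.40e-10). The 1 h fall was lost with DESeq2 (adjusted p = 0.101), with the GC content and length offset (0.0749) and without 1 h replicate 1 (0.120) or 0 h replicate 2 (0.200). In R219S, TGFBR2 had 13.2 and 12.5 CPM in R219S, against 4.72 and 4.99 CPM in WT, a log2 change of 1.40 ± 0.12 (adjusted p = 1.87e-28). TGFBR3 had 16.8 and 17.5 CPM in R219S, against 11.9 and 13.1 CPM in WT, a log2 change of 0.46 ± 0.090 (adjusted p = 1.31e-06). TGFBR1, the type I kinase, had 21.1 and 22.4 CPM in shFOXA1, against 25.1 and 29.2 CPM in shCtrl, a log2 change of -0.32 ± 0.10 (adjusted p = 0.0337), a call lost with DESeq2 (adjusted p = 0.0536), with the GC content and length offset (0.0964) and without shCtrl replicate 2 (0.417). It was not called at 1 h, at 24 h against 0 h or in R219S.

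BMPR1B, a type I BMP receptor, had 30.3 and 37.9 CPM in shFOXA1, against 16.0 and 16.3 CPM in shCtrl, a log2 change of 1.08 ± 0.11 (adjusted p = 7.75e-05), the largest rise with the hairpin among members with a mean of 1 CPM or more. R219S raised it too: 31.1 and 30.9 CPM in R219S, against 16.1 and 16.6 CPM in WT, a log2 change of 0.93 ± 0.076 (adjusted p = 4.57e-30). At 24 h it had 71.9 and 75.9 CPM at 24 h, against 87.1 and 79.2 CPM at 0 h, a slight fall of -0.17 ± 0.050 (adjusted p = 0.00555) that lost its call with the GC content and length offset (adjusted p = 0.160) and without 0 h replicate 1 (0.150) or 24 h replicate 1 (0.0703). BMPR1A, its more widely expressed relative, was called in R219S, at 0.22 ± 0.058 (adjusted p = 0.000444), and had log2 fold changes of 0.039 in shFOXA1, 0.027 at 1 h and -0.11 at 24 h, none of them called. The type II receptor BMPR2 fell by 0.23 ± 0.045 at 1 h (adjusted p = 5.99e-05) and fell by 0.27 ± 0.050 in R219S (adjusted p = 3.73e-07). Its 1 h fall was lost with the GC content and length offset (adjusted p = 0.553).

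The activin type II receptors moved little. ACVR2A rose at 24 h by 0.32 ± 0.086 (adjusted p = 0.00256). ACVR2B fell by 0.21 ± 0.056 at 1 h (adjusted p = 0.00298) and was just called at 24 h, at 0.14 ± 0.057 (adjusted p = 0.0488), and both calls were lost with the GC content and length offset (adjusted p = 0.496 and 0.213). ACVR1, a type I receptor at 4.40 to 6.69 CPM, was called in none of the 4 comparisons, with log2 fold changes from -0.31 to 0.20.

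**Figure D4:**
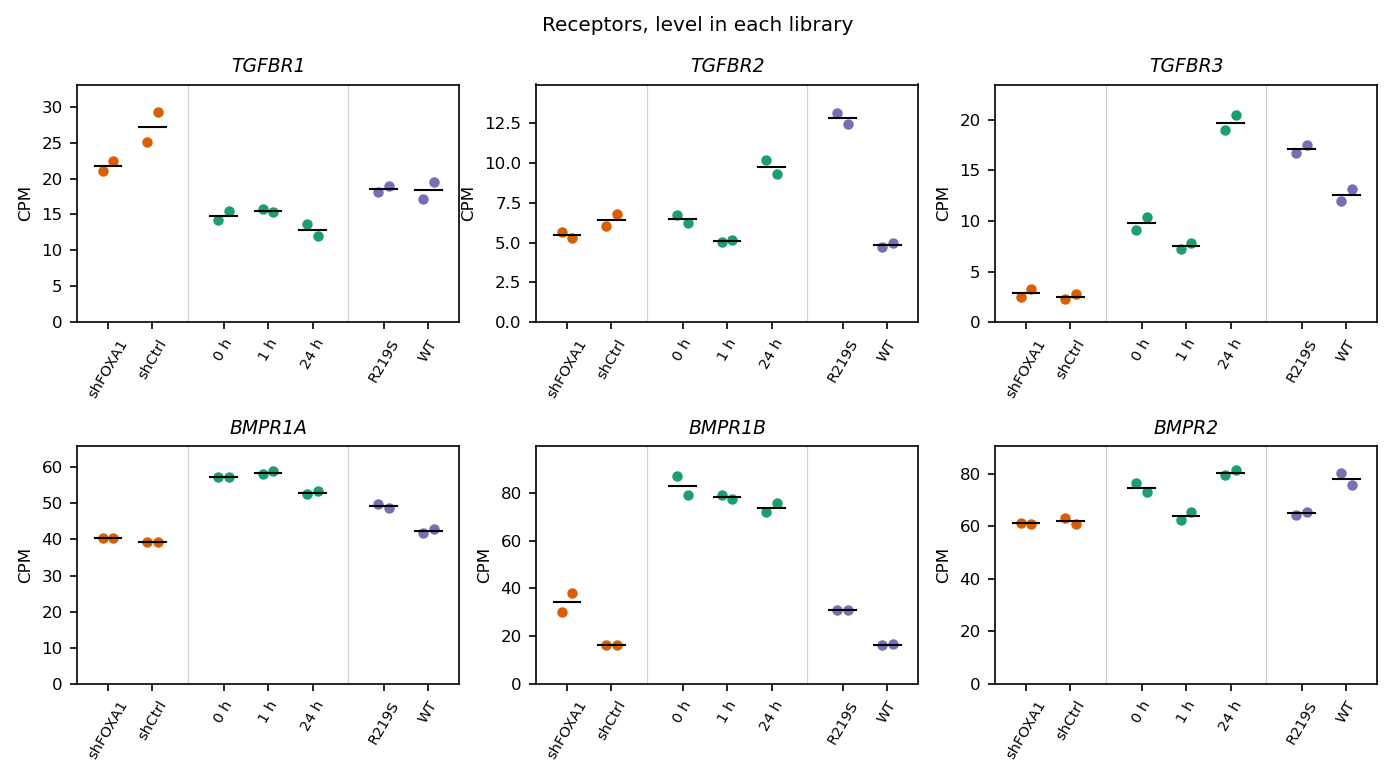
TMM-scaled CPM (y axis, from 0) of the TGF-beta and BMP receptors in every library; points are libraries and bars are the means of 2. TGFBR2 and TGFBR3 are highest at 24 h within the time course and higher in R219S than in WT, and BMPR1B is higher in shFOXA1 and in R219S than in their controls. Levels of different tables were not tested against each other.

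The SMADs that carry the signal had log2 fold changes between -0.12 and 0.39 at 1 h and 24 h, while SMAD3, SMAD5 and SMAD9 moved further in R219S. At 24 h SMAD3, SMAD1, SMAD5, SMAD9 and the common partner SMAD4 rose together, by 0.39, 0.29, 0.28, 0.24 and 0.17 on the log2 scale, with adjusted p between 1.39e-06 and 0.000955. SMAD2 was the exception among them, at 0.029 ± 0.044 (adjusted p = 0.634). At 1 h SMAD9 was the signal-carrying SMAD called, at -0.12 ± 0.042 (adjusted p = 0.0312), and that small fall was lost with DESeq2 (adjusted p = 0.140), with the GC content and length offset (0.394), with no filter on low counts (0.063) and without 3 of the 4 libraries in turn.

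SMAD3 rose with the hairpin and at 24 h and fell in R219S. It had 49.4 and 53.3 CPM in shFOXA1, against 36.2 and 34.1 CPM in shCtrl, a log2 change of 0.55 ± 0.077 (adjusted p = 0.000430). At 24 h it had 37.5 and 36.7 CPM at 24 h, against 28.6 and 28.0 CPM at 0 h, and in R219S 21.5 and 22.7 CPM in R219S, against 38.9 and 36.6 CPM in WT, a log2 change of -0.78 ± 0.070 (adjusted p = 2.96e-25). SMAD9, a BMP branch SMAD, had 12.8 and 14.7 CPM in R219S, against 27.5 and 28.4 CPM in WT, a log2 change of -1.01 ± 0.081 (adjusted p = 2.87e-31). In each of these comparisons the groups did not overlap. SMAD5 fell by 0.54 ± 0.043 in R219S (adjusted p = 1.09e-31), SMAD4 rose by 0.23 ± 0.048 (adjusted p = 4.78e-06) and SMAD2 rose by 0.18 ± 0.047 (adjusted p = 0.000471), the last call being lost without R219S replicate 2 (adjusted p = 0.214). With the hairpin SMAD1, SMAD2, SMAD4, SMAD5 and SMAD9 had log2 fold changes from -0.13 to 0.0051 and none was called.

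Between 1 h and 24 h, tested in a fit of all 6 dTAG libraries, 24 of 37 tested members were called, 18 higher and 6 lower, where 45.7% of 20027 genes were called (55.1% of those with a mean of 1 CPM or more), 21.2% higher and 24.5% lower. By role, 5 of 9 receptors, 3 of 5 receptor-activated SMADs, 3 of 4 latent binding proteins and 4 of 8 inhibitory or feedback genes were higher at 24 h than at 1 h, counts that were not tested against each other. Among the genes in these counts, LTBP1, LTBP2, SKI, SMURF1 and SMURF2 lost their calls in some alternatives. The receptors TGFBR1 and BMPR1A were lower, by -0.27 ± 0.093 (adjusted p = 0.0137) and -0.14 ± 0.049 (adjusted p = 0.0145), and both calls were lost with DESeq2 (adjusted p = 0.0704 for each) and when certain single libraries were left out. TGFBR3 changed by 1.39 ± 0.10 (adjusted p = 1.68e-16), TGIF1 by 0.95 ± 0.071 (adjusted p = 5.14e-16) and TGFBR2 by 0.94 ± 0.13 (adjusted p = 1.93e-08). INHBB fell by 0.97 ± 0.21 (adjusted p = 0.000131). BMPR2, with 76.6 and 73.0 CPM at 0 h, 62.4 and 65.6 CPM at 1 h and 79.5 and 81.4 CPM at 24 h, returned above its 1 h level by 0.33 ± 0.046 (adjusted p = 3.13e-08). The target genes divided, with ID2 higher, ID3 and ID4 lower, and ID1 not called (-0.17 ± 0.063, adjusted p = 0.0603). The ID4 call was lost with the GC content and length offset (adjusted p = 0.0657) and without 24 h replicate 1 (log2 change -0.077).

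The 24 h degradation and the hairpin both reduce FOXA1, and the difference between their changes was tested directly as an interaction. It was called for 16 of 38 tested members, where 22.7% of 20795 genes were called (29% of those with a mean of 1 CPM or more), 9.45% higher and 13.2% lower, and 14 of the 16 were more positive at 24 h. ID1 gave the widest positive difference, 1.86 ± 0.24 (adjusted p = 0.00650), from 1.07 at 24 h and -0.77 with the hairpin. ID2 differed by 1.09 ± 0.074 (adjusted p = 9.69e-10) and SMAD6 by 1.06 ± 0.16 (adjusted p = 4.24e-05). BMPR1B differed by -1.23 ± 0.13 (adjusted p = 1.95e-06), as it rose with the hairpin and fell slightly at 24 h. TGFB2 differed by -4.36 ± 0.41 (adjusted p = 1.17e-07), on 3 and 10 counts in shCtrl. The median difference was 0.23 over the members and -0.037 over all genes. The cells, the route and the time of FOXA1 loss all differed between these comparisons and cannot be told apart.

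Over all genes tested in both comparisons, 68.9% of the hairpin calls were also called at 24 h, and 34.6% of the 24 h calls also with the hairpin. Among members tested in both, 11 were called with the hairpin and at 24 h, which is 84.6% of the hairpin calls and 40.7% of the 24 h calls. Of these, LTBP1, LTBP3, LTBP4, SMAD3, BMP2 and BAMBI moved the same way, and TGFB2, ID1, SKIL, BMPR1B and SMURF1 moved in opposite ways. Among those moving the same way, all but SMAD3 lost the hairpin call in some alternatives, and LTBP4 and BAMBI also the 24 h call. Among those moving in opposite ways, SKIL, BMPR1B and SMURF1 lost the 24 h call in some alternatives, and TGFB2, ID1 and SMURF1 the hairpin call. The same direction was seen for 54.5% of these members and for 80.1% of the 3041 genes called in both over the whole table. For 24 h and R219S, 20 members were called in both, which is 74.1% of the 24 h calls and 71.4% of the R219S calls. Over all genes tested in both, these shares were 66.6% and 61.2%. Of the 20 members, 11 moved the same way, or 55%, against 60.8% of all genes called in both. Those 11 were ID1, ID2, ID3, SMAD6, TGFBR2, TGFBR3, LTBP3 and SMAD4 as higher and BMP2, INHBB and BAMBI as lower. The other 9, TGFB2, TGFB3, SMAD3, SMAD5, SMAD7, SMAD9, SKIL, BMPR1B and SMURF1, moved in opposite ways. In some alternatives the 24 h calls of ID3, INHBB, BAMBI, SKIL, BMPR1B and SMURF1 were lost, as were the R219S calls of LTBP3 and SMAD7. The comparisons paired here share no library.

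**Figure D5:**
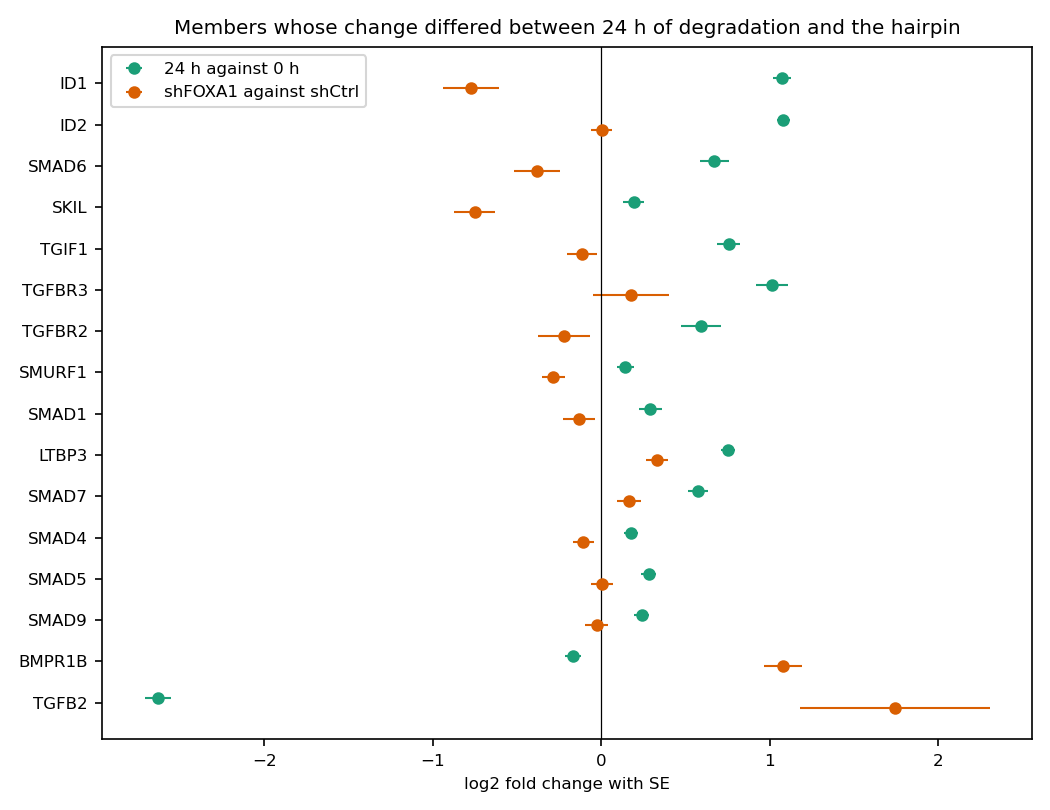
Log2 fold change with standard error (x axis) at 24 h against 0 h and in shFOXA1 against shCtrl, for the 16 members whose change differed between them (2 libraries a group). ID1 and SKIL lie on opposite sides of 0, BMPR1B is positive with the hairpin, and TGFB2 has the widest gap, 1.74 with the hairpin and -2.63 at 24 h.

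A further 84 genes of the pathway, covering activation of latent ligand, other ligands and receptors, extracellular antagonists, regulators and targets, were counted in the same fits. Of those tested, 24 of 66 were called with the hairpin (14 higher, 10 lower), 25 of 66 at 1 h (8 higher, 17 lower), 42 of 68 at 24 h (22 higher, 20 lower) and 45 of 67 in R219S (23 higher, 22 lower). These are 36.4%, 37.9%, 61.8% and 67.2% of those tested, beside 23.6%, 19.8%, 46.9% and 62.1% of all genes, so that the share in R219S was near that of all genes. At 1 h the GC content and length offset left 14 calls and DESeq2 left 15, where 2658 and 2058 of all genes were called. THBS1, thrombospondin 1, an activator of latent TGF-beta, had 117 and 180.5 CPM in shFOXA1, against 33.4 and 32.9 CPM in shCtrl, a log2 change of 2.17 ± 0.29 (adjusted p = 0.0315), a call lost without either shCtrl library (adjusted p = 0.305 and 0.335) and with no filter on low counts (0.111). In R219S it had 85.2 and 84.3 CPM in R219S, against 12.8 and 12.5 CPM in WT, a log2 change of 2.74 ± 0.065 (adjusted p = 2.96e-191). In the time course it had 268 and 264 CPM at 0 h, 175 and 170.1 CPM at 1 h and 362 and 356 CPM at 24 h, and its 1 h fall was -0.62 ± 0.032 (adjusted p = 1.13e-29). Integrin beta 8, encoded by ITGB8 and also an activator of latent ligand, had 88.3 and 85.5 CPM at 24 h, against 28.7 and 30.1 CPM at 0 h, a log2 change of 1.56 ± 0.053 (adjusted p = 3.17e-21).

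SNAI2, a transcriptional repressor induced by TGF-beta in many epithelia, had 48.3 and 68.1 CPM in shFOXA1, against 18.0 and 17.1 CPM in shCtrl, a log2 change of 1.73 ± 0.17 (adjusted p = 0.00163). It also rose at 1 h, by 0.68 ± 0.047 (adjusted p = 1.61e-21). KLF10, a TGF-beta early response gene, rose at 1 h by 0.60 ± 0.052 (adjusted p = 1.08e-16), while CCN1, a matricellular target, had 28.5 and 27.7 CPM at 0 h, 5.20 and 5.83 CPM at 1 h and 9.21 and 10.1 CPM at 24 h and fell by 2.35 ± 0.095 at 1 h (adjusted p = 2.30e-36) and fell by 1.54 ± 0.086 at 24 h (adjusted p = 7.75e-16). RGMA, a BMP co-receptor, rose with the hairpin by 1.66 ± 0.21 (adjusted p = 0.000205). MSTN, myostatin, and ACVRL1, a type I receptor, rose at 24 h from low levels, by 2.03 ± 0.26 (adjusted p = 1.16e-07) and 1.80 ± 0.19 (adjusted p = 2.39e-09).

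In R219S the matrix gene FN1, encoding fibronectin, had 56.2 and 52.5 CPM in R219S, against 854 and 813 CPM in WT, a log2 fold change of -3.94 ± 0.046. AMHR2, the receptor of anti-Müllerian hormone, fell by 2.67 ± 0.33 (adjusted p = 9.98e-15) and the ligand BMP6 fell by 2.14 ± 0.17 (adjusted p = 4.70e-33). PMEPA1, a feedback gene of TGF-beta signalling that is also androgen responsive and is named here after its values were seen, rose by 0.60 ± 0.057 with the hairpin (adjusted p = 3.54e-05) and fell by 0.38 ± 0.036 in R219S (adjusted p = 4.03e-23).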

How the data were processed

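RNA sequencing of 14 libraries was analysed from 4 tables of raw read counts per gene that the authors deposited, whole numbers with no normalization. Their processing notes list STAR, featureCounts, DESeq2 and hg19, and neither strand setting nor annotation is given in the sources used here. The knockdown and dTAG tables held Ensembl identifiers, named through GENCODE 29, and the R219S table held symbols. Both dTAG tables carried the 0 h libraries, identical in all 57905 features.

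The 4 libraries of a comparison entered 1 fit in edgeR 4.0.16 under R 4.3.3, with filterByExpr, TMM scaling, robust glmQLFit and the quasi-likelihood F test. Adjusted p-values are Benjamini-Hochberg over all genes tested. The 6 dTAG libraries were fitted together for 24 h against 1 h, and the knockdown libraries with those at 24 h and 0 h for the interaction. Levels are TMM-scaled CPM, and the standard error is the absolute log2 change divided by the root of F. Fits were tested on simulated data, where 89% to 95% of genes changed by log2 1 were recovered in the comparisons of 2 groups. Of genes changed by log2 0.5, 54% to 67% were recovered there and 16% for the interaction, so smaller changes could be missed. The simulation gave all genes and comparisons the same fixed spread between replicates and changed only genes above a count minimum. It did not carry the wide spread of the shFOXA1 libraries (chi-square per degree of freedom of 11.8). Its recovery rates therefore need not hold for the hairpin comparison or for scarce members. DESeq2 1.42.0, other scalings and filters, a GC content and length offset, a replicate block and leaving out each library were the alternatives.

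The 40 members, the 84 further genes and the tests were chosen with earlier results of these data known. Members given in full were the called ones of largest change, at most 12 a comparison, with an absolute log2 change of at least 0.3, and at most 4 further genes a comparison. The remaining members are given by role.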

Additional observations from a re-analysis of the deposited data

Results flagged for a closer look

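The change at 24 h of degradation differed from the change with the hairpin for 16 members, by the interaction test of edgeR. Values are log2 differences, 24 h change minus hairpin change. TGFB2 differed by -4.36 and BMPR1B by -1.23. ID1 differed by 1.86, ID2 by 1.09 and SMAD6 by 1.06. SKIL differed by 0.96, TGIF1 by 0.88, TGFBR3 by 0.85 and TGFBR2 by 0.83. SMURF1 differed by 0.44, SMAD1 by 0.44, LTBP3 by 0.43 and SMAD7 by 0.42. SMAD4 differed by 0.29, SMAD5 by 0.29 and SMAD9 by 0.28. TGFB2 rests on 13 counts in the shCtrl libraries together. Leaving out 1 library ended the call of SMAD1, SMAD5, SMAD9 or TGFBR3 in at least 1 case each, and the other 12 were called in every alternative run.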

How the results depend on the processing

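No called member or named further gene changed direction in any alternative run, and members without a call were not followed in this check. SMAD2 at 1 h, not called in the main run, lay slightly lower there and was called higher with the GC content and length offset. In the hairpin comparison the most member calls were lost without 1 library (9 of 13), and at 1 h and 24 h with the GC content and length offset (6 of 15 and 6 of 27). Leaving out 1 library at a time gave 4 to 17 called members in shFOXA1 against shCtrl (13 with all libraries), 12 to 32 further pathway genes (24) and 1713 to 6793 of all genes (4506). The low ends came without a shCtrl library, 7 and 4 members without replicate 1 and 2, and the highest count over all genes without shFOXA1 replicate 1. At 1 h it gave 12 to 16 members (15), 12 to 23 further genes (25) and 2232 to 3422 of all genes (3850). Members called ranged from 23 to 26 at 24 h, 25 to 27 in R219S, 19 to 25 at 24 h against 1 h, and 13 to 20 for the interaction. DESeq2 at 1 h called 2058 of all genes and 15 further pathway genes, and 14 further genes were called with the GC content and length offset, with or without the replicate block. The causes were not tested.

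Replicate numbers did not pair the libraries: same-numbered libraries had deviations correlated between -0.041 and 0.0598. With the replicate block, members called were 14 in shFOXA1, 17 at 1 h, 30 at 24 h, 27 in R219S, 25 at 24 h against 1 h and 17 for the interaction. In the same order, 4412, 3909, 9868, 8441, 9296 and 4539 of all genes were called with the block. LTBP3 in R219S was the call lost among those of the main comparisons.

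A call was lost in at least 1 alternative by 10 of the 13 called members in shFOXA1, 7 of 15 at 1 h, 9 of 27 at 24 h, 5 of 28 in R219S, 8 of 24 at 24 h against 1 h and 4 of 16 for the interaction. Depth limits BMP2 outside the knockdown table, BAMBI, INHBB and TGFBI, which rest on few counts in some libraries, and BMP4, BMP7 and INHBA, whose change was not detectable at this depth outside the INHBA test in the knockdown table.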
